A study of Mus musculus with 8 samples.

Results

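The genes described here are 33 genes of cholesterol and fatty acid synthesis, chosen by symbol from the 22810 genes of the count table. No measured value entered the rule, but earlier results of these data were known when the genes were chosen. They fall into 15 genes of the mevalonate and sterol route, 5 genes that control the route through the SREBP transcription factors, and 13 genes that make, elongate, desaturate or activate fatty acids. Of the 33 genes, 30 passed the filter of at least 10 reads in at least 1 allele of at least 1 embryo and were tested, while Idi1, Tm7sf2 and Fads2 did not pass. The data are SMART-Seq2 libraries (a full-length method for small amounts of polyadenylated RNA) from single blastocysts collected at embryonic day 3.5, without culture in vitro, after natural mating of 2 mouse strains, C57BL/6 (B6) and Mus musculus castaneus (cast). In the 3 forward embryos the mother was B6 and the father cast, and in the 5 reverse embryos (numbered 1, 2, 3, 5 and 7) the mother was cast and the father B6, so that the parent and the strain of an allele can be separated over both crosses. All embryos are F1 hybrids with no other genetic change or treatment given in the labels, each library is 1 whole embryo of mixed trophectoderm and inner cell mass, and the labels tie no embryo to a dam or litter. Each value counts reads that cover a single nucleotide polymorphism (SNP) and could be assigned to the B6 or the cast allele.

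Cholesterol is made from acetyl-CoA by way of mevalonate, farnesyl diphosphate, squalene and lanosterol, and fatty acids are made from acetyl-CoA by way of malonyl-CoA. Both routes are switched on by the SREBP factors, which SCAP carries to the Golgi for cleavage when sterols are low and which the INSIG proteins hold back in the endoplasmic reticulum when sterols are high. In the blastocyst these routes supply the membranes of dividing cells and the acyl chains of lipid droplets.

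SREBP binds the sterol regulatory element, and the factor NF-Y binds CCAAT boxes close to it in many of these promoters. RefSeq (GRCm38.p6, the assembly that mm10 names) gave promoter windows of 300 bases, running from 250 bases before to 50 after the start, for 27 of the 33 genes (34 windows), and Sqle is among the genes with none. Searched on both strands, TCACNCCAC, a form of the sterol regulatory element, was in 1.24% of all 32851 windows and in 1 window of these genes, that of Hmgcs1. CCAAT was in 37.4% of all windows and in 23 of the 34 windows (67.6%), which belong to 22 genes. The windows of Pmvk and Msmo1 are shown because their alleles differed by strain, and that of Hmgcs1 because it holds the sterol element. Capitals mark TCACNCCAC and CCAAT on either strand, and each window is written in the direction of the gene. The letters are those of the reference, which is the B6 strain, and cast letters were not used here. A second RefSeq window of Pmvk, 5030 bases further along the gene, holds neither motif.
Pmvk, chr3:89454291-89454590, plus strand: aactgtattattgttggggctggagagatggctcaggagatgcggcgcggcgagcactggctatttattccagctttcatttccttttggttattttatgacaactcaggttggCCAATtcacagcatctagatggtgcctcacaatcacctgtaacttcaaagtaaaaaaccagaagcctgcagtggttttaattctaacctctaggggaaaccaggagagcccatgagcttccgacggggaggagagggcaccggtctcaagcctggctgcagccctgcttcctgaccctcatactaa
Msmo1, chr8:64733529-64733828, minus strand: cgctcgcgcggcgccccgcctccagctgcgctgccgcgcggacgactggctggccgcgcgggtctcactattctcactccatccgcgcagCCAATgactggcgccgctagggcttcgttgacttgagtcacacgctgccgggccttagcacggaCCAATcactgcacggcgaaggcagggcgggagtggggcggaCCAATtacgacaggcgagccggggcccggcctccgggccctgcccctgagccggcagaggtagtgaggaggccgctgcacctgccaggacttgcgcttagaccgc
Hmgcs1, chr13:119690101-119690400, plus strand: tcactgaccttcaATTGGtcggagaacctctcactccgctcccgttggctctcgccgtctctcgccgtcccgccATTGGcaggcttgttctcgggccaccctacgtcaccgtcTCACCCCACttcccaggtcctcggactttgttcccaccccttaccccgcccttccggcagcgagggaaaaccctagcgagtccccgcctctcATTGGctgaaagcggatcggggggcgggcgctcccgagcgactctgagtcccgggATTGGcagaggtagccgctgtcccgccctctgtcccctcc

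The embryos held 1060063 to 1632695 allele-assigned reads, of which 57.4% to 58.3% came from the B6 allele. Trophectoderm markers were present in every embryo (12 of 12 detected), and their sum was 6057 to 10184 CPM (reads of both alleles per 1000000 reads of the TMM-scaled library) in 7 embryos and 2817 in reverse embryo 1. Across 8407 genes, reverse embryo 1 correlated with the others at 0.474 to 0.632 (log2 values), whereas the other 7 embryos correlated with each other at 0.806 to 0.920. Forward embryo 1 held 892 CPM over 16 macrophage markers, 99.8% of them maternal, against 44.6 and 63.9 in the other forward embryos and 5.30 to 9.21 in the reverse embryos. Lyz2, the most abundant of them, had 1055 reads there, while Cd14 and Cx3cr1 were at 0 in all forward embryos. Of 7 red blood cell markers, 3 were in the table, with 5 to 15 reads in a forward embryo (4.10 to 11.6 CPM) and 4 to 77 in a reverse embryo (3.35 to 46.2 CPM), the most in reverse embryo 1, and 90.9% to 100% of them were maternal. Hbb-bs and Slc4a1, 2 of these 3, were at 0 in all forward embryos. In a reverse embryo 1 or 2 of the 3 had reads, and in reverse embryo 1 all 77 came from 1 gene. The part of these reads in the results was not tested. For many of the calls below, fits without forward embryo 1, reverse embryo 1 or both are also given. Mean CPM and allele shares by cross, and counts of pairs read mostly from 1 allele, are given with all embryos only. So are the calls with a term for each embryo and the cross differences by role. How far these depend on the 2 embryos was not tested.

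The 33 genes together took 1630 ± 30.4 CPM in the forward embryos (SD, n = 3) and 1977 ± 161 in the reverse embryos (SD, n = 5). CPM rise with the number of SNPs a transcript holds, so they were compared between embryos and never between genes. Elovl6, which elongates palmitate to stearate, gave 6926 reads over all embryos and between 20.3% and 53.1% of the reads of the 33 genes in an embryo. The mevalonate and sterol genes took 370.2 to 624 CPM in the forward embryos and 293 to 749 in the reverse embryos, with reverse embryo 1 the lowest. The fatty acid genes took 927 to 1161 in the forward embryos and 1061 to 1835 in the reverse embryos, with reverse embryo 1 the highest. The sum of the 5 SREBP control genes lay between 88.4 and 120.4 in all 8 embryos, but its make-up differed in reverse embryo 1. There Scap was at 47.4 CPM (5.86 to 14.7 in the other embryos), while Insig1 (4.80) and Srebf2 (4.20) were at their lowest. A whole blastocyst does not tell fewer cells of a type from less RNA per cell.

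**Figure D1:**
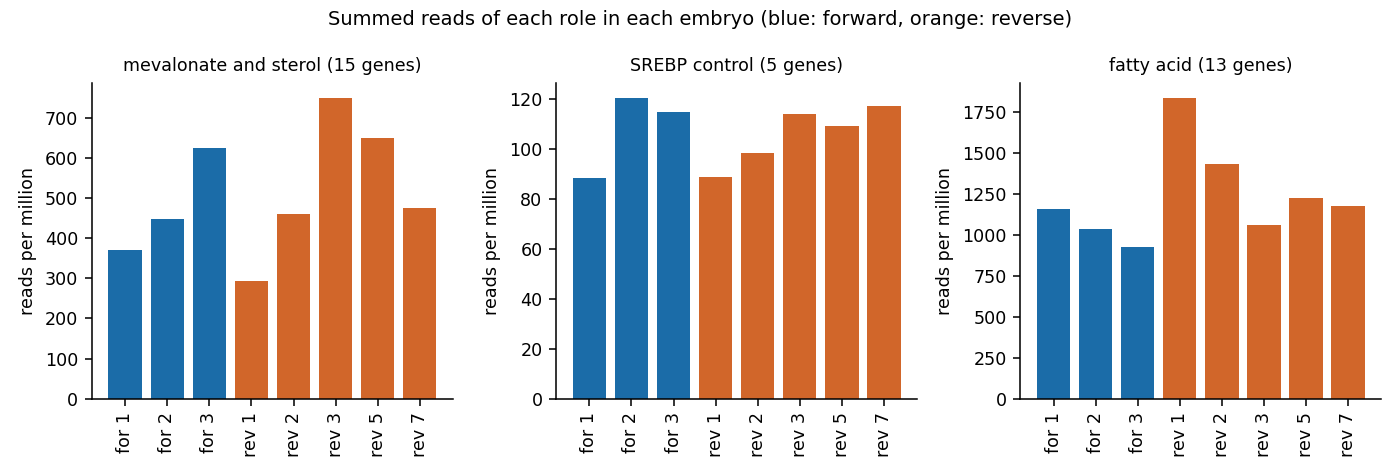
Summed SNP-spanning CPM of the mevalonate and sterol genes (left), the SREBP control genes (middle) and the fatty acid genes (right), with 1 bar for each of the 3 forward (blue) and 5 reverse (orange) embryos. Reverse embryo 1 has the lowest sterol sum (293) and the highest fatty acid sum (1835).

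Of all reads of the 33 genes, 61.0% ± 2.16 came from the B6 allele in the forward cross (SD, n = 3) and 60.8% ± 2.52 in the reverse cross (SD, n = 5), so the maternal share was 61.0% where the mother was B6 and 39.2% where she was cast. When each gene had equal weight (the median over genes at 20 or more reads), the B6 share averaged 57.6% and 56.9%. The SREBP control genes had a B6 share of 51.5% ± 7.29 in the forward and 50.6% ± 12.8 in the reverse embryos, the latter with 28.4% in reverse embryo 1 and 53.2% to 61.1% in the other reverse embryos.

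Whether an allele is read more when it comes from one strain was asked in the same model that holds the parent of the allele, fitted to the 16 allele counts of the 8 embryos with edgeR's quasi-likelihood test. A gene was called where the Benjamini-Hochberg adjusted p over all 12565 genes tested was at most 0.1. Log2 and fold differences from the fit are relative to the TMM-scaled allele libraries. The B6 library was the larger in each embryo (909061 against 707405 in forward embryo 1), so a log2 difference of 0 means more B6 than cast reads. Of the 30 genes, 3 were called, Pmvk toward B6 and Msmo1 and Sqle toward cast, while 15.5% of all genes tested were called (1386 toward B6 and 559 toward cast). All 3 are genes of the mevalonate and sterol route, and none of the 5 SREBP control or 12 tested fatty acid genes was called in this fit. At an unadjusted p of at most 0.05 there were 0 of these 2 groups, against 2969 of 12565 over all genes (edgeR). DESeq2 called 0 of them, against 2187 of all genes. With a term for each embryo, which sets the alleles of 1 embryo against each other, 7 of the 30 genes were called, against 3207 of all genes (25.5%). These 7 were Pmvk, Msmo1 and Sqle and 4 of the 12 fatty acid genes, which are described below. In the fit without this term, the count was 5 without reverse embryo 1 (Pmvk, Msmo1, Elovl6, Fdps and Acaca, against 20.6% of all genes). Without forward embryo 1 it was 1 (Pmvk, against 9.9%), and without both it was 2 (Pmvk and Msmo1, against 14.9%). The median log2 difference (B6 over cast) was -0.05 over the 30 genes and 0.06 over all genes.

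Pmvk encodes phosphomevalonate kinase, which adds a further phosphate to phosphomevalonate (GRCm38 chr3:89454541-89469013, plus strand, no overlapping gene in GENCODE M21). Its reads from the B6 and the cast allele were 104 and 21, 106 and 12, and 182 and 13 in forward embryos 1, 2 and 3. In reverse embryos 1, 2, 3, 5 and 7 they were 84 and 12, 196 and 29, 271 and 32, 320 and 29, and 154 and 26. The B6 allele was higher in 8 of 8 embryos, and its share ran from 83.2% to 93.3% in the forward and from 85.6% to 91.7% in the reverse embryos, so the crosses overlapped. The B6 allele was 6.57-fold higher (log2 2.72, SE 0.35, adjusted p = 2.58e-05, edgeR). Over the alternatives the log2 difference ran from 2.5 to 3.03, and the gene was called in every one of them. By parent the same counts gave a log2 difference of -0.02 (SE 0.35).

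Msmo1 encodes the sterol C4-methyl oxidase, which starts the removal of the methyl groups at carbon 4 of the sterol ring (chr8:64718139-64733792, minus strand, no overlapping gene). Its B6 and cast reads were 6 and 29, 10 and 12, and 7 and 10 in the forward embryos. They were 25 and 61, 11 and 32, 11 and 21, 4 and 22, and 4 and 24 in the reverse embryos. The cast allele was higher in 8 of 8 embryos, with a B6 share of 34.6% ± 15.3 in the forward (SD, n = 3) and 23.7% ± 8.72 in the reverse embryos (SD, n = 5). The log2 difference was -1.61 (SE 0.41, adjusted p = 0.0162, edgeR), a 3.06-fold higher cast allele. Without forward embryo 1, the one with macrophage marker reads and the lowest B6 share of the forward cross (17.1%), the difference was -1.30 and the call was lost (adjusted p = 0.164, edgeR). Without forward embryo 1 and reverse embryo 1 together it was called (adjusted p = 0.0433, edgeR).

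Sqle encodes squalene epoxidase, the first oxygen-requiring enzyme of the sterol branch (chr15:59315077-59331192, plus strand, no overlapping gene). Its B6 and cast reads were 11 and 23, 33 and 21, and 14 and 26 in the forward embryos. In the reverse embryos they were 3 and 88, 6 and 20, 10 and 19, 22 and 34, and 8 and 11. The cast allele was higher in 7 of 8 embryos, forward embryo 2 being the exception, and reverse embryo 1 stood far below the others with a B6 share of 3.30%. The log2 difference was -1.24 (SE 0.46, adjusted p = 0.0880, edgeR). Without reverse embryo 1 it was -0.82 and the call was lost (adjusted p = 0.178, edgeR). Leaving out any one of forward embryos 1 and 3 and reverse embryos 2 and 3 also ended the call, as did fits with 1 library size per embryo and without both embryos that stand apart, at adjusted p from 0.106 to 0.35.

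**Figure D2:**
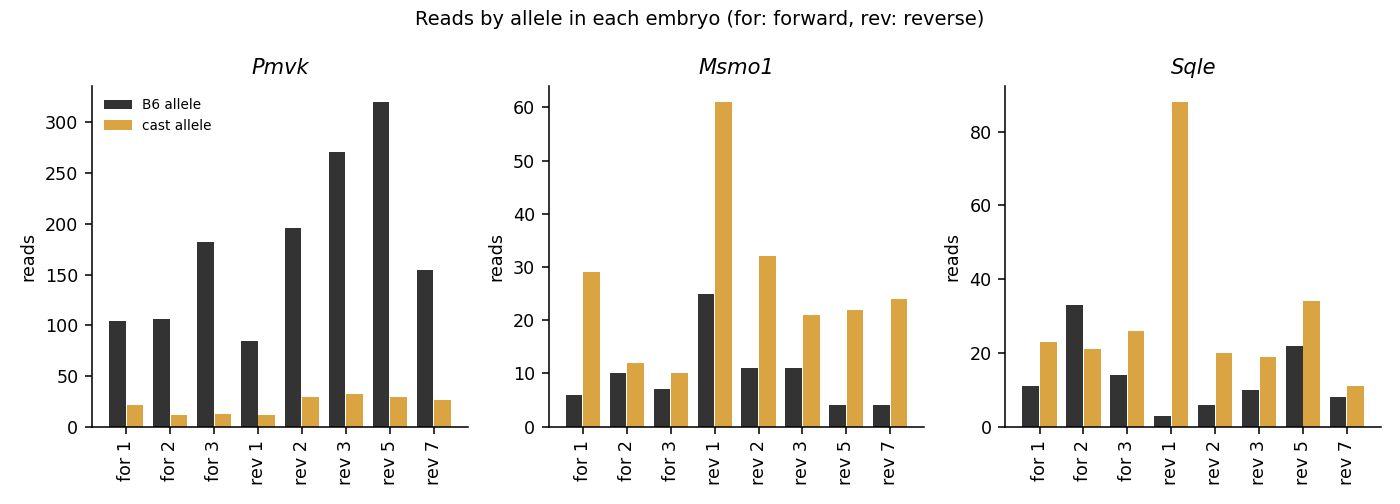
Reads from the B6 allele (dark bars) and the cast allele (yellow bars) of Pmvk, Msmo1 and Sqle in each of the 8 embryos. Pmvk is higher from B6 in every embryo, Msmo1 from cast in every embryo, and Sqle from cast in 7, with 3 B6 and 88 cast reads in reverse embryo 1.

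The embryo term added 4 genes of fatty acid synthesis to these calls. Acaca (acetyl-CoA carboxylase 1, which makes malonyl-CoA) had more B6 reads in 8 of 8 embryos, with a log2 difference of 0.65 (SE 0.30, adjusted p = 0.228) in the fit without the embryo term and an adjusted p of 0.0264 with it (edgeR). Elovl6 had more B6 reads in 8 of 8 embryos too, with a B6 share of 53.7% to 73.3% and adjusted p = 0.375 without and 0.00422 with the term (edgeR). Scd1, a stearoyl-CoA desaturase, had a B6 share of 54.8% to 72.9% in all 8 embryos and adjusted p = 0.580 without and 0.0616 with the term (edgeR). Scd2, its paralog, had more B6 reads in 8 of 8 embryos as well, with a share of 57.4% to 79.2%, and passed neither without nor with the term (adjusted p = 0.513 and 0.136, edgeR). Acly (ATP citrate lyase, which makes cytosolic acetyl-CoA) leaned to cast, with a log2 difference of -0.71 and adjusted p = 0.234 without and 0.0933 with the term (edgeR). Its B6 share was 11.5% in reverse embryo 1 (10 B6 and 77 cast reads) and 73.3% in reverse embryo 5 (66 and 24).

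The other genes of the mevalonate and sterol route did not pass the strain test in the fit without the embryo term. Hmgcs1 (HMG-CoA synthase), the gene with the sterol element printed above, had 3 to 26 reads in an embryo and a log2 difference of 0.38 (SE 0.65), and Fdft1 (squalene synthase) had 0.33 (SE 0.60). Acat2 (acetyl-CoA acetyltransferase), Lss (lanosterol synthase) and Mvd (mevalonate diphosphate decarboxylase) had log2 differences of 0.04, -0.08 and -0.42, each with both strains leading in some embryos. Fdps (farnesyl diphosphate synthase) had more B6 reads in 7 of 8 embryos and a log2 difference of 0.83 (SE 0.50), with 1 B6 and 9 cast reads in reverse embryo 1, the exception. Without that embryo Fdps was called toward B6 (log2 0.93, adjusted p = 0.0862, edgeR). Mvk (mevalonate kinase) had more cast reads in 7 of 8 embryos and ran from 3 B6 and 29 cast reads in reverse embryo 2 to 46 and 14 in forward embryo 1.

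The allele shares of several thinly read sterol genes varied widely between embryos. Cyp51 (lanosterol demethylase) had 14 B6 and 0 cast reads in reverse embryo 1, whereas reverse embryos 2, 3 and 5 had 0 and 19, 1 and 16, and 26 and 14. Hsd17b7, a sterol 3-keto reductase, had 28 B6 reads and 0 cast reads in reverse embryo 1, which allows a cast share of up to 10.7%, and 8 and 9 in reverse embryo 3. Sc5d (lathosterol oxidase) had 14 and 0 in reverse embryo 7 and 9 and 15 in reverse embryo 2. Over all 30 genes, 5 of the 171 pairs of a gene and an embryo at 20 or more reads had at least 90% of the reads from 1 allele (2.92%), against 8.04% of 63279 such pairs over all genes tested. These 5 are Pmvk in forward embryo 3 and reverse embryo 5, Sqle and Hsd17b7 in reverse embryo 1 and Mvk in reverse embryo 2. Reads were not counted by molecule, so such limits cover counting error alone.

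Among the SREBP control genes, all 5 had log2 strain differences below 0, from -0.86 for Insig2 to -0.03 for Srebf1, but with 1 library size per embryo 3 of the 5 were above 0, and none passed. Insig1, which retains SCAP, had more cast reads in 6 embryos, more B6 reads in 1 and equal reads in 1, with a log2 difference of -0.57 (SE 0.43). Srebf1 was at 8 B6 and 32 cast reads in reverse embryo 1, a B6 share of 20%, against 57.1% to 63.5% in the other reverse embryos. Scap had 24 and 55 reads in reverse embryo 1 and 17 and 4 in reverse embryo 2. Srebf2 ran from a B6 share of 35.3% to 66.7% in the forward embryos.

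Of the fatty acid genes not yet described, Elovl5, which elongates polyunsaturated acyl chains, had 1673 reads, a B6 share of 48.1% to 67.1% and a log2 strain difference of 0.02 (SE 0.26). Acacb (acetyl-CoA carboxylase 2), Fasn (fatty acid synthase), Elovl1 (an elongase of very long chains) and Acsl3 (an acyl-CoA synthetase of lipid droplets) had log2 differences between -0.41 and 0.12, none of which passed. Acss2, which makes acetyl-CoA from acetate, had 181 reads and a log2 difference of 1.30 (SE 0.67), with 60 B6 and 8 cast reads in reverse embryo 1 and 7 and 11 in forward embryo 1. Fads1 and Fads2, paralogous desaturases of polyunsaturated chains, had 48 and 10 reads over all embryos. All 10 reads of Fads2 came from the B6 allele, too few for a test, as were the 2 reads of Idi1 (isopentenyl diphosphate isomerase) and the 18 of Tm7sf2 (a sterol C14-reductase).

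**Figure D3:**
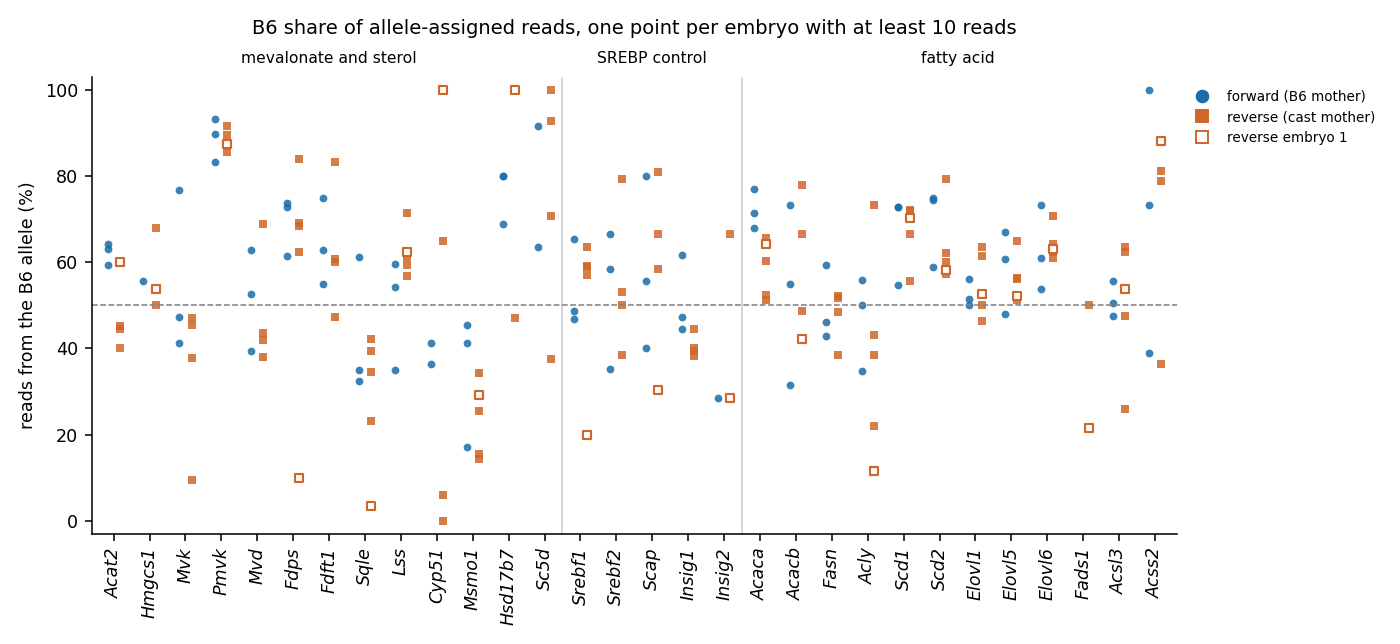
Share of reads from the B6 allele (percent) for each of the 30 tested genes, with 1 point per embryo that had at least 10 reads, circles for the forward and squares for the reverse cross, and reverse embryo 1 as an open square. Pmvk sits between 83.2% and 93.3% in both crosses and Msmo1 below 50% in all embryos, while Cyp51 runs from 0% to 100% within the reverse cross.

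Whether an allele is read more when it comes from the father or the mother was the main question of the study. None of the 30 genes was called paternal or maternal (edgeR, adjusted p at most 0.1), 0 of them had an unadjusted p of at most 0.05, and DESeq2 and the embryo term called 0 as well. Over all 12565 genes, 1.42% were called, of which 139 were more paternal and 40 more maternal, and 3.1% with the embryo term. Of the 12565 genes, 920 had an unadjusted p of at most 0.05 (edgeR), and DESeq2 called 254. The median log2 difference (paternal over maternal) was -0.04 over the 30 genes, with a range from -0.73 to 0.67, and -0.01 over all genes.

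The smallest p in this comparison belonged to Sqle, with more maternal reads in 6 of 8 embryos, a log2 difference of -0.73 (SE 0.46, 95% interval -1.69 to 0.23) and adjusted p = 0.945 (edgeR). In forward embryos 1, 2 and 3 its maternal share was 32.4%, 61.1% and 35.0%, and in the reverse embryos 57.9% to 96.7%. Without reverse embryo 1 the log2 difference was -0.30, and without forward embryo 1 and reverse embryo 1 it was -0.42. In the reverse embryos the maternal reads of Sqle are its cast reads, given above. Lss had more paternal reads in 6 of 8 embryos and a log2 difference of 0.46 (SE 0.34). Its maternal and paternal reads were 31 and 21, 32 and 27, and 34 and 63 in the forward embryos, and 18 and 30, 24 and 60, 39 and 57, 28 and 44, and 16 and 21 in the reverse embryos. The paternal allele of Lss therefore led in all 5 reverse embryos and in 1 of 3 forward embryos, while the B6 allele led in 7 of 8. These are raw reads, and over all genes 57.4% to 58.3% of the reads of an embryo came from B6. The strain difference of Lss from the fit is given above. Acat2 had more maternal reads in 6 of 8 embryos and a log2 difference of -0.37 (SE 0.29). Its maternal and paternal reads were 52 and 29, 41 and 28, and 60 and 35 in the forward embryos, and 26 and 39, 39 and 26, 51 and 42, 38 and 57, and 30 and 24 in the reverse embryos.

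A test of equivalence asked the reverse, namely whether the paternal and the maternal allele differed by less than 2-fold (log2 margin of 1). It called 10 of the 30 genes equivalent, against 35.6% of all genes tested. These were Elovl5, Elovl6, Acsl3, Acacb, Srebf1, Pmvk, Elovl1, Acat2, Acly and Fdps, with adjusted p from 0.0174 for Elovl5 to 0.0892 for Fdps (edgeR). By role they were 6 of 12 fatty acid genes, 3 of 13 sterol genes and 1 of 5 SREBP control genes. With the embryo term 18 genes were called, among them all of these 10, against 45.3% of all genes. Without any 1 of the forward embryos 1, 2 and 3 the count was 2 each time. Over all genes the count then fell from 4477 to 2087 (17.1%), 1832 and 1615. Without reverse embryo 5 it was 6, against 3418 over all genes. Without reverse embryo 1 it was 18 (against 47.4% of all genes), and without forward embryo 1 and reverse embryo 1 it was 12 (against 40.8%). Among the genes not called, the 95% interval of the parental difference was widest for Fads1 (log2 -1.60 to 2.91), Cyp51 (-1.91 to 1.82) and Sc5d (-1.75 to 1.63).

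**Figure D4:**
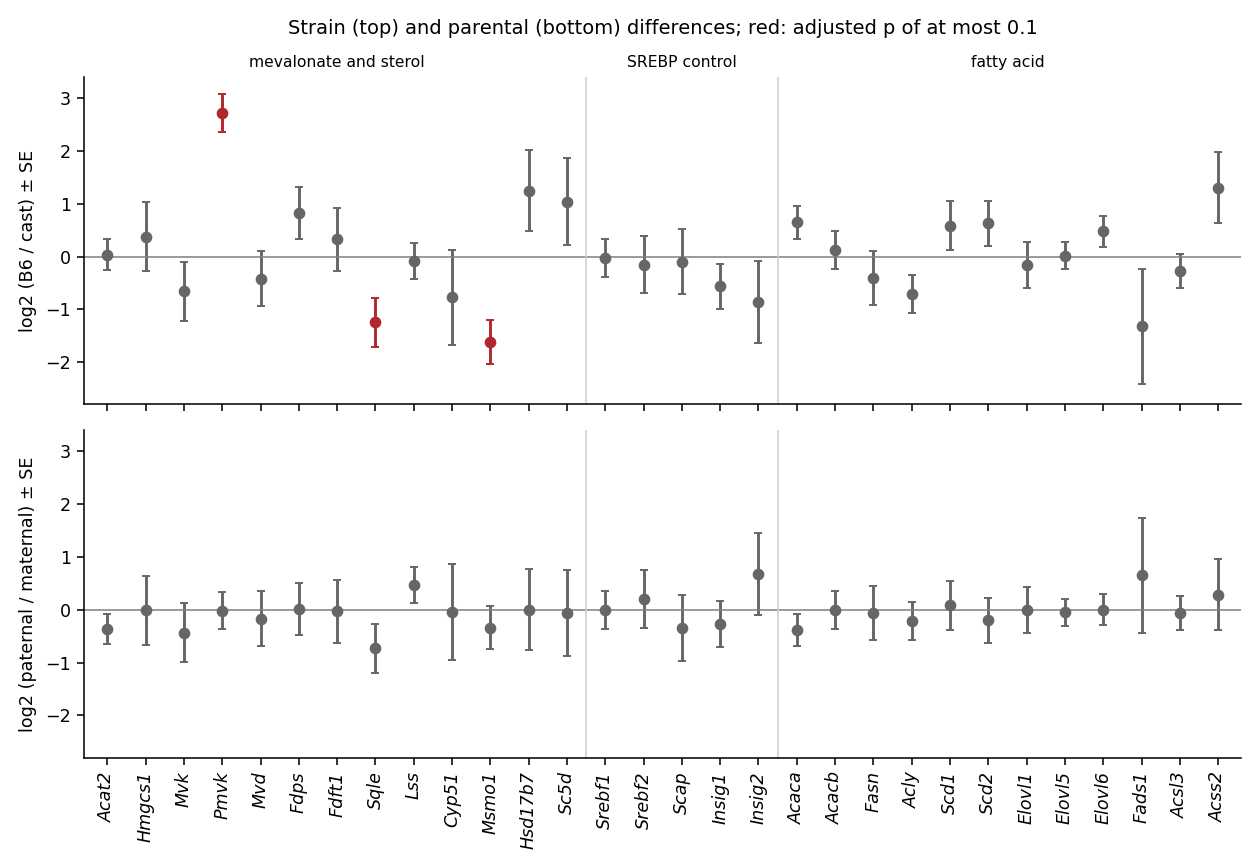
Log2 difference of B6 over cast (top) and paternal over maternal (bottom) with its SE for the 30 tested genes, in red where the adjusted p was at most 0.1. Pmvk (2.72), Msmo1 (-1.61) and Sqle (-1.24) are red at the top and no gene is red at the bottom.

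Total reads of both alleles were compared between the crosses, which differ in the strain of the mother and of the father at once, so that these cannot be told apart here. None of the 30 genes was called (edgeR, 13078 genes tested), against 0.0688% of all genes, and DESeq2 called 0, against 136 of all genes. At an unadjusted p of at most 0.05 there were 2 of the 30, against 958 of the 13078 genes tested (edgeR). These 2 are Scd1 and Scd2, the neighbouring paralogs on chromosome 19 that introduce the first double bond into saturated acyl chains. Scd2 was at 28.7, 15.2 and 22.9 CPM in the forward embryos and at 33, 81.4, 62.8, 43.9 and 51.3 in reverse embryos 1, 2, 3, 5 and 7. The crosses did not overlap, and the log2 difference of reverse over forward was 1.28 (SE 0.40, adjusted p = 0.486, edgeR). Scd1 was at 51.2, 29.4 and 39.3 in the forward embryos and at 16.2, 96.6, 124.8, 119.7 and 96.8 in the reverse embryos. Reverse embryo 1 was below all forward embryos and the other 4 reverse embryos were above them, with a log2 difference of 1.17 (SE 0.50, adjusted p = 0.652, edgeR).

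Without reverse embryo 1 both were called higher in the reverse cross, Scd1 by 1.44 (adjusted p = 0.0248) and Scd2 by 1.41 on the log2 scale (adjusted p = 0.0742, edgeR). In that fit 160 of all genes were called (1.28%), against 9 with all embryos. Without forward embryo 1 as well, Scd1 was called (adjusted p = 0.0671) and Scd2 was not (adjusted p = 0.163, edgeR), and 37 of all genes were called (0.307%). Reads that map to several places were left out by the authors, so reads from stretches shared by the Scd genes are not in these values. Msmo1, next by p, was at 21.3, 19.6 and 13.9 in the forward and at 51.6, 27.1, 26.8, 19.7 and 27.1 in the reverse embryos, a log2 difference of 0.73 (SE 0.43, adjusted p = 0.722, edgeR). By role, 11 of 12 fatty acid genes and 6 of 13 sterol genes had a log2 difference above 0, against 7300 of 13078 over all genes. The medians were 0.40 and -0.10 against 0.08 over all genes (with library totals alone, 10 of 12 and 6 of 13 were above 0). Reverse embryo 1 lay above all other reverse embryos for Acaca, Elovl5, Elovl6, Acsl3 and Acss2. It lay below them for Acacb, Fasn, Scd1, Scd2 and Elovl1. These values by role were not taken without it.

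Reverse embryo 1 lay below all 4 other reverse embryos for 16 of the 30 genes and above all 4 for 9, against 32.9% and 33.7% of all genes tested. The 16 low genes hold most of the upper sterol route and its control, with Mvd at 4.20 CPM (43.9 to 73.9 in the other reverse embryos), Mvk at 5.40 (20.2 to 62.0), Fdps at 6.00 (18.4 to 51.9), Fdft1 at 1.80 (12.0 to 25.1) and Insig1 at 4.80 (21.5 to 32.0). Fasn was at 3.00 against 28.1 to 59.5. The 9 high genes were Sqle, Msmo1, Hsd17b7, Scap, Acaca, Elovl5, Elovl6, Acsl3 and Acss2, with Elovl6 at 1178 against 390.2 to 694, Acaca at 197 against 72.0 to 119, and Scap at 47.4 against 5.86 to 13.3. This is 1 embryo, so these values carry no test.

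**Figure D5:**
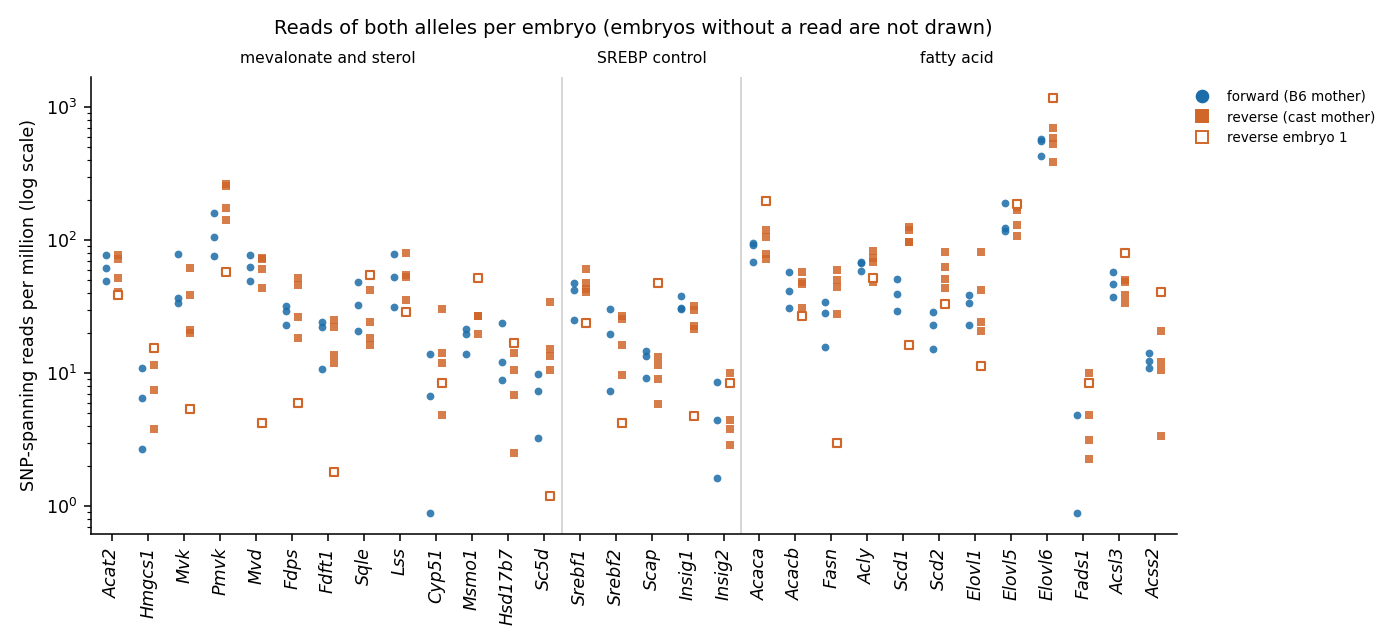
SNP-spanning CPM of both alleles (log axis) for each of the 30 tested genes, with 1 point per embryo, circles for the forward and squares for the reverse cross, and reverse embryo 1 as an open square. The open squares of Mvd (4.20), Fasn (3.00) and Fdft1 (1.80) lie below all other embryos, and those of Elovl6 (1178) and Scap (47.4) above.

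The wider lipid pathways were read through 6 lists of genes, whose strain counts stand beside the 15.5% of all genes called (25.5% with the embryo term). By strain, 2969 of the 12565 genes tested had an unadjusted p of at most 0.05 (edgeR), and DESeq2 called 2187. Among 10 tested genes of other sterol and isoprenoid steps, 2 were called by strain, Dhdds toward B6 (log2 1.06, in 8 of 8 embryos), which makes the dolichol chain, and Lbr toward cast (-0.89, in 6 of 8), a sterol C14-reductase of the nuclear envelope. Of 12 tested genes that process or turn over SREBP none was called by strain (edgeR, 1 at an unadjusted p of at most 0.05, 1 with DESeq2 and 1 with the embryo term). Among 14 tested genes of sterol uptake, export and storage, Vldlr and Osbp were called by strain, and with the embryo term 4 genes were. Vldlr, a lipoprotein receptor, had 161 B6 reads and 0 cast reads over all embryos, so that its B6 allele was at least 53.7-fold higher, with 3 cast reads over all embryos taken as the floor. Osbp, an oxysterol-binding protein, leaned to cast in 8 of 8 embryos (log2 -1.04).

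Of 20 tested genes of other fatty acid synthesis, Me1 (malic enzyme, a source of NADPH, log2 1.87), Acsl6 (1.24) and Scd3 (2.12) were called toward B6, each with more B6 reads in 8 of 8 embryos. Of 20 tested genes of glycerolipids and droplets, Plin2, the main coat protein of lipid droplets, was called toward B6 (1.02), and Agpat4 (-1.52) and Gpam (-1.46), acyltransferases of glycerolipid synthesis, toward cast. With the embryo term 5 of these were called. Of 18 tested genes of fatty acid oxidation, Cpt2 (1.43) was called toward B6 and Slc25a20 (-0.66) toward cast, the transferase and the carrier of the carnitine shuttle, and with the embryo term 5 were called.

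The strain calls of Dhdds, Vldlr, Me1, Acsl6 and Agpat4 held with each embryo left out in turn. Those of Plin2 and Gpam were lost without forward embryo 2 (adjusted p = 0.141 and 0.188, edgeR), and that of Cpt2 without forward embryo 2 or 3 or reverse embryo 7 (0.110 to 0.146). Lbr, Osbp and Scd3 lost theirs without any one of the forward embryos or of reverse embryos 3, 5 and 7 (adjusted p 0.104 to 0.322), and Slc25a20 without any one forward embryo or reverse embryo 5 (0.110 to 0.164). Leaving out both embryos that stand apart also ended the calls of Scd3 and Slc25a20 (adjusted p = 0.241 and 0.102, edgeR). With 1 library size per embryo the log2 differences of Lbr, Osbp and Slc25a20 were -0.55, -0.69 and -0.32, and their calls were lost (adjusted p = 0.270, 0.283 and 0.386, edgeR). Without a filter on low counts Lbr and Slc25a20 were not called (adjusted p = 0.145 and 0.201, edgeR).

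By parent, 1 of 20 tested genes of other fatty acid synthesis and 2 of 20 of glycerolipids and droplets were called. Of all genes tested 1.42% were called, and none of the 30. No test compared the lists with the 30 genes. Thrsp, a nuclear regulator of lipid synthesis, had 67 maternal and 0 paternal reads over 7 embryos with reads, a maternal allele at least 22.3-fold higher over the same floor of 3 reads. Its call was lost without forward embryo 3, which held 14 of the 16 forward reads (adjusted p = 0.236, edgeR), and without both embryos that stand apart (adjusted p = 0.121, edgeR). Its reads and the red blood cell marker reads were 2 and 15, 0 and 13, and 14 and 5 in forward embryos 1, 2 and 3. In reverse embryos 1, 2, 3, 5 and 7 they were 27 and 77, 10 and 39, 6 and 4, 2 and 33, and 6 and 22. The marker reads came from 1 or 2 genes in an embryo. The part of red blood cells in this result was not tested. Lpin1, a phosphatidate phosphatase, and Mgll, the monoacylglycerol lipase, had more paternal reads in 8 of 8 embryos (log2 2.92 and 1.05). Lpin1 gave 37, 60, 8, 36 and 4 paternal against 0, 0, 0, 0 and 1 maternal reads in the reverse embryos, and 33, 9 and 12 paternal against 17, 3 and 7 maternal reads in the forward embryos. Its call was lost without forward embryo 2, reverse embryo 2 or reverse embryo 5 (adjusted p 0.110 to 0.158, edgeR). Mgll lost its call when any one forward embryo or reverse embryo 7 was left out, and without both embryos that stand apart (adjusted p 0.102 to 0.240, edgeR). In the other 4 lists, namely other sterol steps, SREBP processing, sterol uptake and fatty acid oxidation, none was called by parent (edgeR). At an unadjusted p of at most 0.05 there were 1 of 10, 0 of 12, 2 of 14 and 2 of 18, against 920 of 12565 over all genes. With the embryo term 1, 0, 2 and 2 were called, against 3.1% of all genes. DESeq2 called 0, 0, 1 and 0, against 254 of all genes. None of the genes of the 6 lists was called between the crosses (edgeR). In the order of the lists above, 0 of 10, 1 of 12, 4 of 14, 1 of 20, 0 of 21 and 1 of 19 had an unadjusted p of at most 0.05. Over all genes 958 of 13078 did. DESeq2 called 1 between the crosses, in the list of sterol uptake, against 136 of all genes.

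Several of the 33 genes share ground with another gene in GENCODE M21, and the strand of counting is not given in the sources used here. Fdft1 overlaps Ctsb, Cyp51 overlaps Akap9, Srebf1 overlaps Rai1, Elovl1 overlaps Cdc20, and Acss2 overlaps Gss and Ggt7, each on the other strand, and Tm7sf2 overlaps Vps51 and Acsl3 overlaps Utp14b on the same strand. The paper states that its analysis kept only genes whose reads could be assigned to a given transcript without ambiguity. Whether the counts used here had passed that step was not checked, so they may hold reads of the neighbour. Pmvk, Msmo1 and Sqle have no such overlap.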

How the data were processed

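The deposited file holds whole-number read counts per gene and allele for 8 single blastocysts. To make these counts the authors aligned SMART-Seq2 reads to mm10 with STAR, dropped reads that map to several places and kept reads that cover B6 or cast SNPs (Allelome.Pro). The submitters' processing notes name STAR 2.5.2b, SAMtools 1.9-92 and bedtools. Since mm10 is the B6 genome, cast reads may align less well. Molecules were not counted.

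Allele libraries held unequal reads, so TMM factors were used. Genes with at least 10 reads in 1 allele library were fitted with edgeR 4.0.16 (R 4.3.3) on strain and parent, or on cross for the sums of both alleles. Calls were made at an adjusted p of 0.1, and equivalence by 2 one-sided tests at a log2 margin of 1. The scripts were tested on simulated data. Alternatives were DESeq2 1.42.0, other scaling and filters, an embryo term and each embryo left out. The embryo term pairs the alleles of 1 animal: their deviations correlated at 0.0893 to 0.567.

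The 33 genes and all lists were chosen with earlier results of these data known. All 33 are named by role. Full values are given for genes called in a comparison, filled up to 3 by smallest p, and of each pathway list up to 5 called genes are named. Other genes given with values by embryo (Fdps, Mvk, Cyp51, Hsd17b7, Sc5d, Srebf1, Scap, Acss2, Acly) were chosen after their values were seen. Nothing says that embryos came from separate litters, so p-values between the crosses measure the spread between these embryos alone. The p-values by strain, by parent and for equivalence measure the spread between the allele libraries of these embryos. Without the embryo term, those fits treat the alleles of an embryo as independent, and only the embryo term pairs them. Leaving out both embryos that stand apart was chosen after seeing the data.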

Additional observations from a re-analysis of the deposited data

Results flagged for a closer look

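In the 5 reverse embryos, 50 sets of values were searched for 1 embryo far from the rest by Dixon's criterion, and 5 were marked, where chance marks about 1 set in 20. Reverse embryo 1 was the far one in 4 of the 5. Msmo1 stood at 51.6 CPM there, with the next highest embryo at 27.1. Scap stood at 47.4, with the next at 13.3. Scd1 stood at 16.2, with the next lowest at 96.6. The B6 share of Srebf1 was 20% there, with the next lowest at 57.1%. The remaining one was the B6 share of Scd2 in reverse embryo 7, 79.2%, with the next highest at 62.1%. The 3 forward embryos are too few for this search.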

How the results depend on the processing

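None of the single-gene differences picked by the naming rule reversed under the alternatives run. The count of the 33 genes called by parent was 0 under all 18 alternatives. By strain it was 3, with 7 under the embryo term, and 1 to 5 with 1 embryo left out. Equivalence called 10, with 19 by DESeq2, 16 with the newer edgeR dispersion setting, 18 with the embryo term, 0 at a margin of 1.5-fold, and 2 to 18 with 1 embryo left out. Between crosses it was 0, with 0 to 2 when 1 embryo was left out and 1 without both embryos that stand apart, an alternative chosen after seeing the data.

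Over all genes, 179 parental calls became 75 with at least 10 reads in every embryo, 306 with the newer dispersion, 406 without a filter, 389 with the embryo term, and 120 to 195 with 1 embryo left out. The 1945 strain calls became 1068 with at least 10 reads in every embryo, 3207 with the embryo term, and 1206 to 2453 with 1 embryo left out. The 4477 equivalent genes became 0 at 1.5-fold and 1615 to 5659 with 1 embryo left out. The 9 calls between crosses became 136 with DESeq2, 0 with at least 10 reads in every embryo, 28 with the newer dispersion, 15 with library totals alone, 143 without a filter, 37 without both embryos that stand apart, and 3 to 160 with 1 embryo left out. Blocking the crosses by the shared embryo number gave 21 calls and none of the 33 genes, and the numbers share only a name (correlations 0.213, 0.0212 and 0.197). Other changes of call by the embryo term are given with the results.

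With 1 library size per embryo, 87.4% of strain calls were toward B6 against 71.3%, and the median log2 difference of all genes moved from 0.06 to 0.40. Pmvk, Msmo1 and Acaca were then the strain calls. The B6 share of the 33 genes, 61.0% and 60.8% by cross, became 57.6% and 56.9% as a median over genes, and the maternal share, 61.0% and 39.2%, became 57.6% and 43.1%. Depth limits the genes with few reads: Hmgcs1, Cyp51, Insig2 and Fads1 had 48 to 124 reads over all embryos.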
